A study of Rattus norvegicus with 35 samples.

Results

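Myclobutanil at 30 uM was compared with the vehicle DMSO in cultured rat hepatocytes, liver parenchymal cells taken from the animal and plated. The 3 arrays titled as myclobutanil at 30 uM and the 3 titled as DMSO, 6 of the 35 arrays in the series, were chosen by their titles alone. Rs256, Rs293 and Rs304, the codes in the titles, each supplied 1 array to either group, and arrays were compared within the code. Cells were exposed through the medium for 72 h, and the design text of the series puts the vehicle at 0.1% DMSO. The series also tested myclobutanil at 10 and 100 uM, propiconazole and triadimefon at 10, 30 and 100 uM, phenobarbital and PCN. Total RNA was measured on Affymetrix rat genome arrays, where the signals of a set of short probes against a transcript are combined into 1 value for that probe set. Rat strain, sex and age, and the vehicle content of the treated cultures, are not given in the labels. The design text calls the arrays of a group biological replicates. The labels do not say whether an Rs code marks an animal, a culture or something else. The p-values therefore measure spread between arrays. In the main fit that spread is pooled over all 35 arrays after group means and Rs codes are taken out.

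Myclobutanil is a triazole fungicide. Triazoles bind the fungal sterol demethylase CYP51, whose mammalian counterpart makes an intermediate of cholesterol. In liver, foreign compounds of many kinds activate the nuclear receptors CAR and PXR, which switch on oxidation by cytochrome P450 enzymes, conjugation by glucuronosyltransferases and glutathione transferases, and export by transporters. A separate nuclear receptor, PPARalpha, drives the genes of fatty acid oxidation, and the transcription factors SREBP-1c and SREBP-2 drive those of fatty acid and sterol synthesis. The comparison asked which of these genes differed from vehicle at the middle dose, how they stood at the doses below and above, and whether the other triazoles at the same dose differed.

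Values are in normalized units, the deposited log-like values after quantile normalization of the 35 arrays. The base of the log is not stated. If the spiked bacterial transcripts bioC, bioD and cre were added at the usual 5, 25 and 100 pM, a doubling corresponded to 0.487 units (SD 0.0241 over the arrays), and on the 6 arrays to between 0.452 and 0.524. Changes are therefore given in units, not folds. Whether groups overlapped also refers to these units. The share of all genes whose groups did not overlap was not counted. A change is the mean of myclobutanil minus the mean of DMSO, with its standard error (SE) from limma with the Rs code as a block. A gene was called when its Benjamini-Hochberg adjusted p was under 0.05.

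Before normalization the 6 arrays had SDs of 0.667 to 0.740, within the 0.646 to 0.941 of the series. Of 23 hepatocyte markers on the array, 22 lay above the array's median on all 6 arrays. Markers of other liver cells did so for 4 of 15 macrophage, 4 of 19 stellate cell, 2 of 13 endothelial and 2 of 8 cholangiocyte genes, and 7, 9, 10 and 3 of them lay below it on every array. Among the latter were the macrophage genes Ptprc and Adgre1, the stellate cell genes Col1a1 and Lrat, and the endothelial genes Pecam1 and Vwf. The mean marker level of each array spanned -0.01 to 0.21 with myclobutanil and -0.00 to 0.18 with DMSO for macrophages, and 0.04 to 0.18 and 0.05 to 0.20 for stellate cells. It spanned -0.14 to -0.09 and -0.15 to -0.11 for endothelium, and 0.47 to 0.61 and 0.39 to 0.64 for cholangiocytes, so the groups overlapped for all 4 lists. The difference between 3 prime and 5 prime probe sets, a measure of RNA integrity, differed between the groups by -0.02 for beta-actin and -0.01 for GAPDH (exact permutation test, two-sided, p = 1 for each, and 3 arrays against 3 cannot give less than 0.1). In bulk cultures, fewer cells of a type and less RNA per cell cannot be told apart.

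Cyp2c6v1 and Ugt2b1 rose with myclobutanil at 30 uM, and no gene fell. They were 2 of 10490 genes tested (0.0191% called higher, 0% called lower), and both encode enzymes that act on foreign compounds. Genes of fatty acid oxidation lay below their vehicle level almost throughout, but none of them passed the test singly. At an unadjusted p under 0.05 there were 532 genes (5.07%), of which 275 were higher (2.62%) and 257 lower (2.45%). In 14.3% of all genes myclobutanil was above DMSO in every Rs code, and in 13.3% below it. The median change over all genes tested was 0.00.

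**Figure D1:**
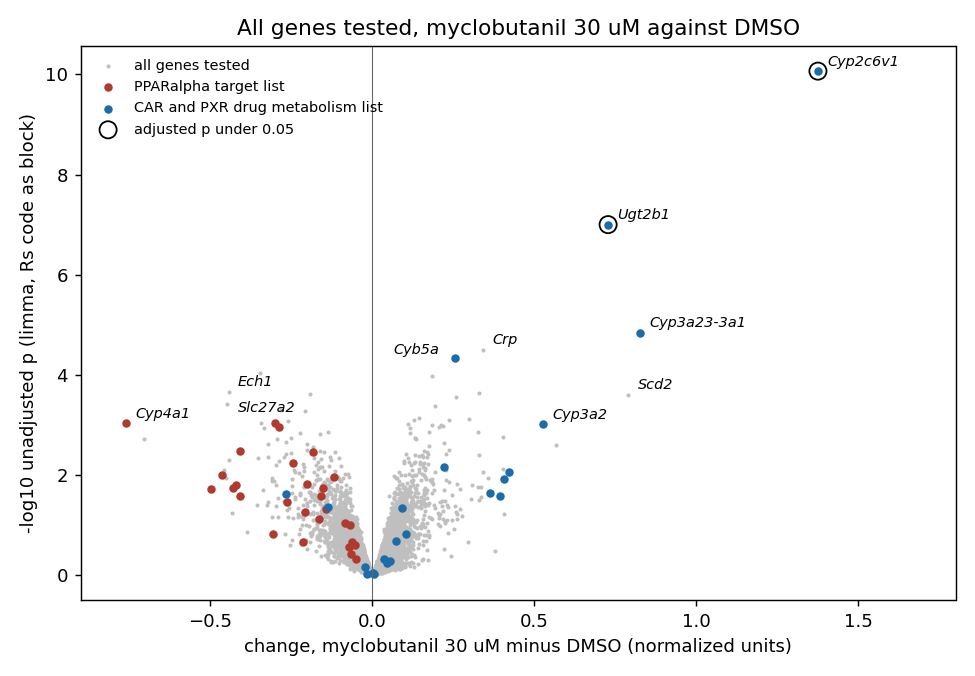
Change between myclobutanil at 30 uM and DMSO (x axis, normalized units) against -log10 of the unadjusted limma p (y axis) for the 10490 genes tested, with the lists of CAR and PXR drug metabolism (blue) and PPARalpha targets (red) marked. Circles mark the 2 genes with an adjusted p under 0.05, Cyp2c6v1 at 1.38 and Ugt2b1 at 0.73, while all 28 red points lie left of 0.

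Cyp2c6v1 is a cytochrome P450 of the 2C family and a known target of phenobarbital-type induction. Its level with DMSO was 1.93 in Rs256, 1.42 in Rs293 and 0.92 in Rs304, and with myclobutanil 3.17, 2.59 and 2.63. All 3 treated arrays lay above all 3 vehicle arrays, although the vehicle arrays alone spanned more than the treated ones. On the deposited values the groups did not overlap either, but there the treated arrays spanned more (SD 0.65 against 0.50). The means were 1.42 (SD 0.50, n = 3) and 2.80 (SD 0.32, n = 3), a change of 1.38 (SE 0.128, 95% interval 1.11 to 1.64, limma adjusted p = 9.02e-07). By code the change was 1.25, 1.17 and 1.71.

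Ugt2b1 is a glucuronosyltransferase, which attaches glucuronic acid to steroids and drugs so that they can be excreted. Its level with DMSO was 2.55, 2.31 and 2.50 in Rs256, Rs293 and Rs304, and with myclobutanil 3.12, 3.29 and 3.15. The groups did not overlap, and Rs293 had the lowest vehicle and the highest treated array. On the deposited values the groups did not overlap either, but Rs293 was the lowest code in both (2.15 and 2.91). The means were 2.45 (SD 0.13, n = 3) and 3.18 (SD 0.091, n = 3), a change of 0.73 (SE 0.0984, 95% interval 0.53 to 0.93, limma adjusted p = 0.000525). Both calls were lost when the deposited values were used with no quantile step (adjusted p = 0.0574 for Cyp2c6v1 and 1.0 for Ugt2b1, changes of 1.40 and 0.75) and when arrays were centred on the median and scaled to a common spread (adjusted p = 0.285 and 1.0). Without the replicate block Ugt2b1 was called and Cyp2c6v1 was not (adjusted p = 0.778), and without the Rs293 or the Rs304 arrays Ugt2b1 was not (adjusted p = 0.0548 and 0.0897).

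Cyp3a23-3a1 and Cyp3a2, P450 enzymes of the 3A family that PXR controls, differed from vehicle by 0.83 and 0.53, on either side of Ugt2b1 in size. Cyp3a23-3a1 measured 3.32, 2.52 and 2.52 with DMSO and 3.66, 3.65 and 3.52 with myclobutanil, in the order Rs256, Rs293 and Rs304. After quantile normalization the groups did not overlap. The Rs256 vehicle array stood near the treated arrays, and the change in that code was 0.35 against 1.14 and 1.0 in the others. Both features depended on the quantile step. The deposited values were 3.28, 2.35 and 2.45 with DMSO and 4.12, 3.24 and 3.27 with myclobutanil. There the groups overlapped, and Rs256 was the highest code in both. The change of 0.83 (SE 0.154, 95% interval 0.51 to 1.14) lay at the edge of the threshold, at a limma adjusted p of 0.05004. Without the Rs256 vehicle array it was 1.04 (adjusted p = 0.00109), and without the vehicle array of Rs293 or Rs304 it was 0.73 (adjusted p = 0.414) or 0.71 (adjusted p = 0.468). Cyp3a2 measured 0.13, -0.27 and -0.27 with DMSO and 0.74, 0.25 and 0.19 with myclobutanil, again without overlap, a change of 0.53 (SE 0.141, limma adjusted p = 0.372).

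The promoters of these genes are shown because PXR is known to bind paired copies of the half-site AGTTCA in Cyp3a genes. Another reason was that, after quantile normalization, the Cyp3a genes and Ugt2b1 had treated arrays above all vehicle arrays. The sequences run from 250 bases before to 50 bases after the gene's start, in the gene's direction, from RefSeq on build GRCr8, with each half-site on either strand in capitals (TGAACT is AGTTCA read on the other strand). RefSeq's table held an entry for 3 of the 4 genes looked up, and none for Cyp2c6v1.
Cyp3a23-3a1, chr12:14398754-14399053, minus strand: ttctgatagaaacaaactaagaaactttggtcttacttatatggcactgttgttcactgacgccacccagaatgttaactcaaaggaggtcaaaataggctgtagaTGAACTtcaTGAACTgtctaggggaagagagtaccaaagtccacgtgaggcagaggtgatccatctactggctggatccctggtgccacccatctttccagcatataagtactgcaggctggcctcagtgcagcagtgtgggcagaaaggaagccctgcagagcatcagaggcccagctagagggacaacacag
Cyp3a2, chr12:14343808-14344107, minus strand: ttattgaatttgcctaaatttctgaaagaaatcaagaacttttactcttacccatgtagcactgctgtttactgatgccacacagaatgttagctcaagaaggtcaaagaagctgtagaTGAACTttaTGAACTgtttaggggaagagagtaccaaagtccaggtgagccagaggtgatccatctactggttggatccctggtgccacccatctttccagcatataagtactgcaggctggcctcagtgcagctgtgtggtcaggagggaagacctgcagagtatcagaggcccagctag
Ugt2b1, chr14:21378632-21378931, plus strand: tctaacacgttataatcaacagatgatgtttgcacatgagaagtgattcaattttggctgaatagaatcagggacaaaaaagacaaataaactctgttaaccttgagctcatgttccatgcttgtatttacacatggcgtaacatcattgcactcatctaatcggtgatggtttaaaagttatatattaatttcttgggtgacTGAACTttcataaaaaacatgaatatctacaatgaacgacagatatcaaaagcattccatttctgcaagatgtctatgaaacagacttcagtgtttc
Both Cyp3a promoters held a direct repeat of the half-site spaced by 3 bases (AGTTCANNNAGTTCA, either strand), which began at position -144 from the start in Cyp3a23-3a1 and at -131 in Cyp3a2. Of 33469 rat promoters of this length only these 2 held that repeat (0.00598%), while 14.5% held at least 1 half-site, as the Ugt2b1 promoter did. The direct repeat spaced by 4 (AGTTCANNNNAGTTCA) was in 4 promoters (0.012%) and the everted repeat spaced by 6 (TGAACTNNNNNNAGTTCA) in 0, and none of the 3 shown held either. The motifs overlap, since each repeat contains the half-site. They were chosen after the expression values and 2 of the sequences had been seen, and a match is a description of letters, not a measured site.

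The list of CAR and PXR targets in drug metabolism had 25 of its 37 genes on the array under a probe set of their own, and 22 were tested. Both called genes belonged to it, 11 members were higher and 2 lower at an unadjusted p under 0.05, and 12 were higher and 1 lower in every Rs code. Over all genes 2.62% were higher and 2.45% lower at that p, and 14.3% and 13.3% in every Rs code. The median change of the list was 0.10, against 0.00 over all genes. Abcc2, a canalicular pump for conjugates, measured 2.44, 1.78 and 2.39 with DMSO and 2.70, 2.50 and 2.61 with myclobutanil, without overlap, a change of 0.41 (SE 0.150, adjusted p = 0.780). Alas1, the first enzyme of heme synthesis, changed by 0.36 (adjusted p = 0.862) without overlap, and Por, the reductase that feeds electrons to P450 enzymes, by 0.22 (adjusted p = 0.674) with overlap. On the deposited values the groups of Abcc2 overlapped (treated 2.26 in Rs293, vehicle 2.40 in Rs256). Those of Alas1 did too (treated 2.22 in Rs293, vehicle 2.25 in Rs304). Cyb5a, the other electron donor of P450 enzymes, had one of the smallest p-values among genes not called: 2.77, 2.85 and 3.09 with DMSO against 3.10, 3.14 and 3.23 with myclobutanil, a change of 0.25 (SE 0.0517, adjusted p = 0.0972), and it was called without the Rs304 vehicle array. The basolateral pump Abcc3 changed by 0.06 (95% interval -0.12 to 0.23) and the retinal dehydrogenase Aldh1a1 by -0.27 (adjusted p = 0.862).

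Glucuronidation beyond Ugt2b1 showed small differences. Of 9 genes tested in that list, Ugt2b1 was called, and the median change was 0.03. At an unadjusted p under 0.05, 3 were higher and 0 lower (2.62% and 2.45% of all genes). Ugt2b35 and Ugt2a1 changed by 0.16 each (adjusted p = 0.862 and 0.941), and the family member listed as Ugt2b by -0.11. Ugt2b genes resemble each other closely, so a probe set can report a relative as well.

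Cyp2b1 and Cyp2b2, the classical markers of CAR activation, had no probe set of their own. A probe set that the annotation assigns to both measured 0.997, 0.894 and 1.05 with DMSO and 2.86, 2.51 and 2.68 with myclobutanil at 30 uM, in the order Rs256, Rs293 and Rs304. These arrays lay far apart. The change was 1.70 (SE 0.455), and its limma adjusted p among 17971 probe sets tested one by one was 0.448, with an SE that pools the spread of this probe set over all 12 groups of the series. The same probe set measured 1.78, 1.96 and 1.95 at 10 uM and 2.08, 1.01 and 1.63 at 100 uM, so that its 3 arrays at 30 uM lay above all 6 at the other doses (100 minus 30 uM, -1.11, SE 0.455, adjusted p = 0.401). A probe set assigned to the glutathione transferases Gsta5 and Gsta2 together measured 2.03, 1.38 and 1.48 with DMSO and 3.13, 2.61 and 2.71 with myclobutanil, without overlap, a change of 1.19 (SE 0.221, adjusted p = 0.0508). No single gene is named from either probe set. The Gsta probe set was chosen after its values were seen.

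**Figure D2:**
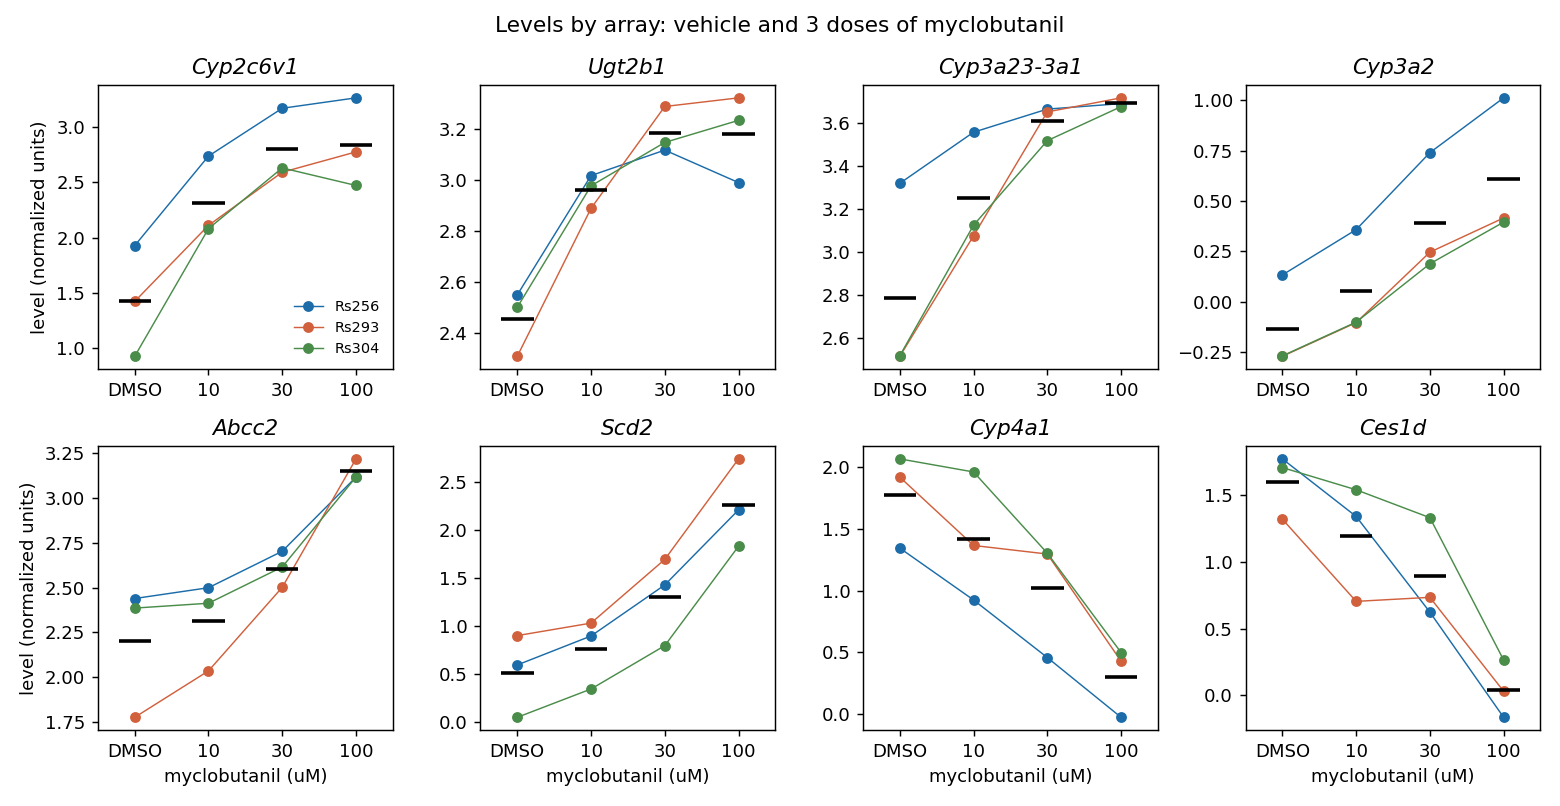
Level of 8 genes (y axis, normalized units) on each array with DMSO and with myclobutanil at 10, 30 and 100 uM (x axis), with lines joining arrays of 1 Rs code and black bars for group means of 3 arrays. Cyp2c6v1 and Ugt2b1 have all 3 arrays at 30 uM above all 3 with DMSO with steps of 0.04 and -0.00 from 30 to 100 uM, against steps of 0.95 for Scd2, -0.72 for Cyp4a1 and -0.85 for Ces1d.

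PPARalpha target genes, which take up, activate and oxidize fatty acids, lay below vehicle. Of 28 tested members (30 of 35 fixed genes had a probe set of their own), 28 had a change below 0, 22 were lower in every Rs code against 13.3% of all genes, and 17 were lower at an unadjusted p under 0.05 against 2.45%. None was called, and the median change was -0.20, with -0.21, -0.22 and -0.19 in Rs256, Rs293 and Rs304 and -0.19 on the values as deposited. It was -0.16 without the Rs256 arrays. The same genes were already known to respond to the 100 uM dose of this series when the list was made.

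Cyp4a1, which hydroxylates the end carbon of fatty acids, had the largest difference of the list. It measured 1.34, 1.92 and 2.07 with DMSO and 0.46, 1.30 and 1.30 with myclobutanil, in the order Rs256, Rs293 and Rs304. The groups did not overlap, and Rs256 was the lowest code in both. The change was -0.76 (SE 0.202, 95% interval -1.17 to -0.34, limma adjusted p = 0.372). Its relative Cyp4a3 measured 2.73, 2.73 and 2.89 with DMSO and 2.20, 2.19 and 2.58 with myclobutanil, also without overlap, a change of -0.46 (adjusted p = 0.765). Fabp1, the liver fatty acid binding protein, changed by -0.50 (adjusted p = 0.849), and Ehhadh, the peroxisomal bifunctional enzyme of beta-oxidation, by -0.43 (adjusted p = 0.847), both with overlapping groups. Eci1, a mitochondrial isomerase of beta-oxidation, changed by -0.34, -0.28 and -0.25 in the 3 codes, -0.29 in all (SE 0.0784, adjusted p = 0.372). The secreted targets differed in how even they were over the codes: Angptl4, an inhibitor of lipoprotein lipase, changed by -0.53, -0.06 and -0.19, and the hormone Fgf21 by -0.35, -0.45 and 0.19.

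Beside this list, the carboxylesterase Ces1d, which hydrolyses lipid and drug esters, changed by -0.70 (SE 0.202, adjusted p = 0.442), with 1.77, 1.32 and 1.71 for DMSO and 0.62, 0.74 and 1.33 for myclobutanil. The 2 groups touched there, since the Rs304 treated array stood just above the Rs293 vehicle array. Of 22 genes of lipid droplets and triglyceride turnover 4 were lower and 0 higher at an unadjusted p under 0.05 (2.45% and 2.62% of all genes), with a median of -0.07. Slc27a2, which transports and activates very long fatty acids, and Ech1, an isomerase of beta-oxidation, lay outside both lists and were chosen after their values were seen. They changed by -0.45 (adjusted p = 0.316) and -0.44 (adjusted p = 0.237).

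Sterol synthesis and desaturation held no called gene. Cyp51, the mammalian counterpart of the fungicides' target, measured 2.18, 2.43 and 2.34 with DMSO and 2.26, 2.71 and 2.38 with myclobutanil. The groups overlapped, and the change was 0.13 (SE 0.0933, 95% interval -0.06 to 0.33, limma adjusted p = 1.0). None of the 17 sterol synthesis genes tested was called, and the median was 0.08. At an unadjusted p under 0.05, 4 were higher and 0 lower (2.62% and 2.45% of all genes). In every Rs code 11 were higher and 1 lower (14.3% and 13.3% of all genes). Tm7sf2, a sterol reductase, changed by 0.24 (adjusted p = 0.588), Sc5d, a sterol desaturase, by 0.16 (adjusted p = 0.674), Lss, the lanosterol synthase, by 0.16 (adjusted p = 0.925), and Acat2, which makes acetoacetyl-CoA, by 0.12 (95% interval -0.01 to 0.24). Insig1, which holds SREBP in the endoplasmic reticulum, changed by 0.12 (adjusted p = 1.0).

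Scd2, a stearoyl-CoA desaturase, was furthest from vehicle among the genes of fatty acid synthesis. It measured 0.59, 0.90 and 0.05 with DMSO and 1.43, 1.69 and 0.80 with myclobutanil. The groups overlapped because the codes differed in level, while within the codes the change was 0.83, 0.79 and 0.75. The mean change was 0.79 (SE 0.185, 95% interval 0.41 to 1.17, limma adjusted p = 0.237). The 24 genes of fatty acid synthesis and desaturation had a median of 0.01, with 2 higher and 1 lower at an unadjusted p under 0.05 (2.62% and 2.45% of all genes). Fads1, the delta-5 desaturase, changed by 0.20 (adjusted p = 1.0) and Elovl2, an elongase, by -0.16 (adjusted p = 0.944).

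**Figure D3:**
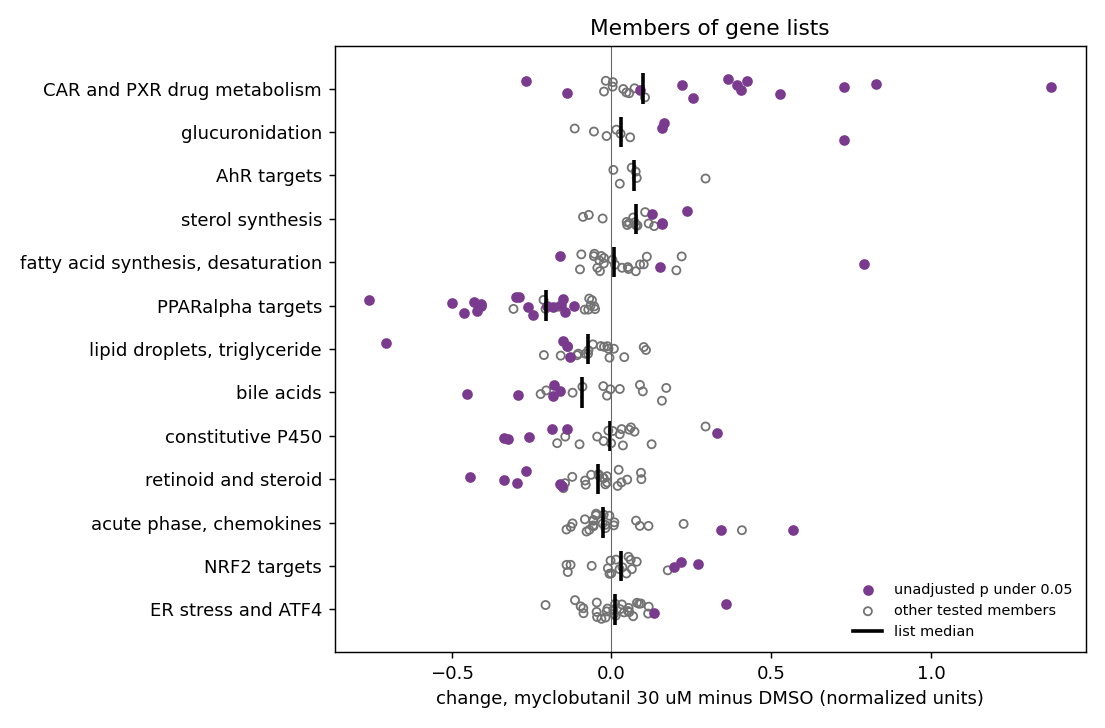
Change between myclobutanil at 30 uM and DMSO (x axis, normalized units) for the tested members of 13 gene lists (y axis), filled where the unadjusted limma p was under 0.05, with black bars for list medians. The PPARalpha targets are the list with all members below 0 (median -0.20), and the 2 called genes lie at 1.38 and 0.73 in the drug metabolism list.

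None of the bile acid and steroid genes was called, but more of them lay lower than over all genes, of which 2.45% were lower at an unadjusted p under 0.05 and 13.3% in every Rs code. That lean was not particular to them. In every code 12 of 23 hepatocyte markers were lower and 0 higher, and 14 of 32 amino acid genes were lower and 6 higher. Of 17 bile acid genes 5 were lower and 0 higher at an unadjusted p under 0.05, with a median of -0.09, and 8 were lower in every code. Cyp8b1, the sterol 12-hydroxylase, changed by -0.45 (SE 0.166, adjusted p = 0.778), and Baat, which conjugates bile acids, by -0.29 (-0.31, -0.29 and -0.27 in the codes, adjusted p = 0.901). Cyp7a1, which starts the classical route to bile acids, measured 0.03, 0.07 and 0.28 with DMSO and 0.55, -0.00 and 0.34 with myclobutanil, and its change of 0.17 (95% interval -0.35 to 0.70) rested on Rs256. Of 25 genes of retinoid and steroid metabolism 6 were lower and 0 higher, led by the retinol dehydrogenase Rdh7 at -0.44 (adjusted p = 0.623). Among 22 constitutive P450 genes, Cyp2c11, the male-specific steroid hydroxylase, changed by 0.33 (SE 0.0763, adjusted p = 0.237) and the steroidogenic Cyp17a1 by -0.34 (adjusted p = 0.862), with 1 higher and 5 lower at an unadjusted p under 0.05.

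Targets of AhR, the dioxin receptor, and of the oxidant sensor NRF2 were not called. Cyp1a1, the most responsive AhR target, measured 3.25, 3.06 and 3.24 with DMSO and 3.30, 3.18 and 3.25 with myclobutanil, a change of 0.06 (95% interval -0.12 to 0.24). None of 6 AhR targets had an unadjusted p under 0.05, and the median was 0.07. All 6 lay above 0, as 51.9% of all genes did. In every Rs code 3 were higher and 0 lower (14.3% and 13.3% of all genes). Cyp1a2 had the largest change of the list, 0.29 (95% interval -0.18 to 0.77), with 0.37, 0.31 and 0.20 in the codes. Of 20 NRF2 targets 3 were higher and 0 lower at that p (2.62% and 2.45% of all genes), with a median of 0.03. Hmox1, the heme oxygenase, changed by 0.27 (adjusted p = 0.850) and Nqo1, a quinone reductase, by 0.08 (95% interval -0.10 to 0.26). Of 30 genes of endoplasmic reticulum stress 2 were higher and 0 lower, with a median of 0.01, and Vldlr, a lipoprotein receptor, led them at 0.36 (adjusted p = 0.778).

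Crp, C-reactive protein of the acute phase, had the smallest p-value among the genes that were neither called nor of drug metabolism. It measured 3.02, 3.09 and 2.90 with DMSO and 3.42, 3.32 and 3.29 with myclobutanil. The groups did not overlap, and the change was 0.34 (SE 0.0677, limma adjusted p = 0.0830). The chemokine Cxcl9 measured 0.25, 0.54 and 0.64 with DMSO and 0.66, 1.14 and 1.34 with myclobutanil, just without overlap, a change of 0.57 (adjusted p = 0.511). The other acute phase and chemokine genes did not share that direction: of 26 tested, 9 lay above 0 and 17 below, with a median of -0.03, which was 0.00 after median centring with scaling of the spread.

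None of the members of the other lists was called, and for these the counts are at an unadjusted p under 0.05 (2.62% of all genes higher, 2.45% lower). Of 12 genes of cholesterol sensing, uptake and efflux, 15 of the cell cycle, 22 of glucose metabolism and 29 of mitochondrial respiration, 0 were higher and 0 lower, with medians of 0.01, 0.01, -0.06 and -0.02. Of 15 p53 targets 1 was higher (median 0.01), and of 32 genes of amino acid metabolism 2 were higher and 1 lower (median -0.06). Of 23 hepatocyte markers 0 were higher and 3 lower. Their median was -0.07, but -0.00 with the deposited scale kept and 0.01 with arrays centred and scaled. The medians of the macrophage (8 tested), stellate cell (11), endothelial (3) and cholangiocyte (5) markers were 0.00, -0.01, -0.00 and 0.01.

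The call count moved with the fit. When only the 6 arrays were fitted, with the Rs code as the block, limma called 20 genes: Cyp2c6v1, Ugt2b1, Cyp3a2, Scd2 and Cxcl9 among the higher, and Cyp4a1, Cyp4a3, Eci1, Cpt1a, Pdk4, Txnip, Slc27a2, Cyp8b1, Baat, Hsd3b5 and Glud1 among the lower, with S1pr1, Duoxa1, Col5a2 and Ggt1. Without the Rs293 arrays 6 genes were called, namely Cyp2c6v1, Crp, Scd2, Slc27a2, Abcc2 and Mpeg1, and without the Rs304 arrays only Cyp2c6v1.

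The doses on either side of 30 uM share its arrays and were compared without DMSO. Between 10 and 30 uM limma called no gene (0% in either direction, 135 at an unadjusted p under 0.05). Between 30 and 100 uM it called 35 genes higher and 35 lower (0.334% each). Cyp2c6v1 measured 2.74, 2.11 and 2.08 at 10 uM and 3.27, 2.78 and 2.47 at 100 uM, so the step from 30 to 100 uM was 0.04 (95% interval -0.22 to 0.30), and the step from 10 to 30 uM was 0.49 (95% interval 0.22 to 0.75, adjusted p = 1). Ugt2b1 measured 3.02, 2.89 and 2.98 at 10 uM and 2.99, 3.32 and 3.23 at 100 uM, with steps of 0.22 (95% interval 0.02 to 0.42) up to 30 uM and -0.00 (95% interval -0.21 to 0.20) above it. Against DMSO, Cyp2c6v1 was already called at 10 uM (change 0.89, limma adjusted p = 0.00336), and Ugt2b1 was not (0.51, adjusted p = 0.140). Cyp3a23-3a1 had steps of 0.36 and 0.08, and Abcc2 of 0.29 and 0.54 (adjusted p = 0.112). These steps are on the quantile-normalized values. The deposited means at 30 and 100 uM were 2.79 and 2.85 for Cyp2c6v1 and 3.11 and 3.17 for Ugt2b1. For Cyp3a23-3a1 they were 3.54 and 3.71, and for Abcc2 2.56 and 3.15.

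From 30 to 100 uM 5 of 17 genes of sterol synthesis and 3 of 24 of fatty acid synthesis were called higher. None of either list was called lower (0.334% of all genes each way). These lists were made with earlier results of these data known. Scd2 rose by 0.95 (SE 0.185, limma adjusted p = 0.0168), Acat2 by 0.49 (SE 0.0614, adjusted p = 0.000279), Acss2, which makes acetyl-CoA, by 0.47 (adjusted p = 0.00290) and Insig1 by 0.37 (adjusted p = 0.00829). Hmox1 also rose, by 0.45 (adjusted p = 0.0494). The sterol synthesis genes called higher were Acat2, Tm7sf2, Fdft1, Sc5d and Sqle. The median step of all tested genes of that list was 0.23 after a median of 0.10 from 10 to 30 uM. Cyp51 itself had a step of 0.31 (SE 0.0933, adjusted p = 0.157).

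Of the 28 PPARalpha targets 8 were called lower and 0 higher over the same step (0.334% of all genes each way). That list was made with the response to 100 uM known. Angptl4 fell by 0.70 (SE 0.118, adjusted p = 0.00549), Cyp4a3 by 0.75 (adjusted p = 0.0292) and Eci1 by 0.56 (adjusted p = 0.000906). The median step of the 28 was -0.27 after -0.10 from 10 to 30 uM. Ces1d fell by 0.85 (adjusted p = 0.0473) and Tm4sf4, a tetraspanin-like membrane protein, by 0.49 (adjusted p = 0.00616). Cyp4a1 had a step of -0.72 (SE 0.202) but was not called (adjusted p = 0.122). The 70 calls of this step became 1 in the fit that had no replicate block, 0 with values left as deposited or centred and scaled, 0 without the Rs304 arrays, 24 without Rs256 and 26 without Rs293. They became 126 when only the arrays of these 2 doses were fitted, 43 of them shared with the 70.

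**Figure D4:**
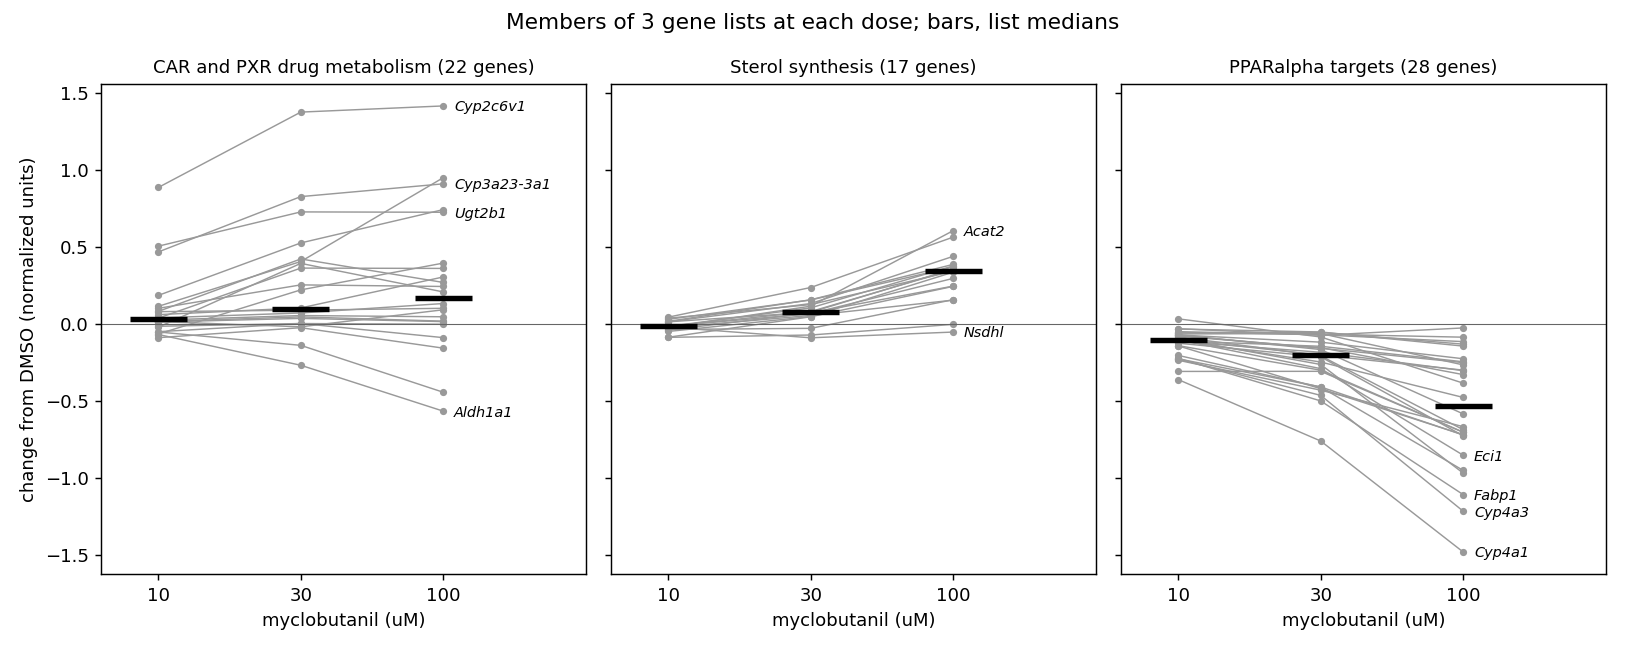
Change from DMSO (y axis, normalized units) at 10, 30 and 100 uM myclobutanil (x axis) for each tested member of 3 gene lists, with black bars for list medians. The comparisons share the DMSO arrays. PPARalpha medians go from -0.10 through -0.20 to -0.53 and sterol synthesis medians from -0.02 through 0.08 to 0.34, while Cyp2c6v1 and Ugt2b1 stand 0.04 and -0.00 from their 30 uM change at 100 uM.

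Myclobutanil was set against propiconazole and triadimefon at the same 30 uM and 72 h. All 3 compounds carry a triazole ring, and they differ in the groups beside it: a nitrile in myclobutanil, a ketone in triadimefon and a dioxolane ring in propiconazole. The 2 pairs share the myclobutanil arrays. No gene passed in either pair (0% in either direction, with a smallest adjusted p of 0.264 against propiconazole and 0.307 against triadimefon), and 0 of the 20980 tests passed when p-values were adjusted over both pairs (smallest adjusted p = 0.351). At an unadjusted p under 0.05 there were 727 and 389 genes. Without the Rs293 arrays limma called 4 genes against propiconazole and 1 against triadimefon. Scd2 was called in both pairs then, at -0.95 (adjusted p = 0.00252) and -0.99 (adjusted p = 0.00157).

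The 2 called genes differed from propiconazole by an amount that turned on the scaling and on 1 array. Both genes were also called for each of these compounds at 30 uM against the same DMSO arrays, on the quantile-normalized values. So was Cyp3a23-3a1 (limma adjusted p = 0.00202 for propiconazole and 0.00547 for triadimefon). Cyp2c6v1 measured 3.43, 2.58 and 2.48 with propiconazole and 3.02, 2.28 and 2.10 with triadimefon. Myclobutanil minus propiconazole was -0.03 (95% interval -0.29 to 0.24) and myclobutanil minus triadimefon 0.33 (95% interval 0.07 to 0.60, adjusted p over both pairs = 0.854). Ugt2b1 measured 3.36, 3.24 and 3.09 with propiconazole and 2.97, 3.25 and 3.09 with triadimefon, with differences of -0.05 (95% interval -0.25 to 0.15) and 0.08 (95% interval -0.12 to 0.28). For Cyp3a23-3a1 they were -0.11 (95% interval -0.43 to 0.21) and -0.05 (95% interval -0.37 to 0.27). These intervals hold for 1 gene at a time and for the quantile-normalized values. On the deposited scale the differences from propiconazole were -0.38 for Cyp2c6v1 (95% interval -0.88 to 0.11), -0.54 for Ugt2b1 (95% interval -1.19 to 0.11) and -0.70 for Cyp3a23-3a1 (95% interval -1.49 to 0.10), and -0.41, -0.58 and -0.74 with arrays centred and scaled. The Rs293 array of propiconazole stood apart there, with Ugt2b1 at 4.79 against 3.60 in Rs256 and 2.56 in Rs304. Without that array the differences on the deposited scale were 0.02, 0.08 and 0.07. Against triadimefon the 3 differences on the deposited scale were 0.30, 0.08 and -0.03.

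The lipid synthesis genes named here lay lower with myclobutanil than with either compound, without passing the test. Scd2, Acat2, Insig1 and Acss2 met the naming rule for called rises from these same myclobutanil arrays to the highest dose. Such a choice favours genes that are low on these arrays, and so favours differences below 0 in both pairs. Acss2 was named by that rule alone, while Scd2, Acat2, Insig1 and Fads1 were also on the fixed list of genes. Scd2 differed by -0.71 against propiconazole (95% interval -1.09 to -0.33, adjusted p over both pairs = 0.790) and by -0.93 against triadimefon (95% interval -1.32 to -0.55, adjusted p over both pairs = 0.351). Insig1 differed by -0.19 and -0.30, Acat2 by -0.26 and -0.26, Acss2 by -0.35 and -0.30 and Fads1 by -0.32 and -0.41, each with a 95% interval below 0. On the deposited scale the intervals against triadimefon reached above 0 for Insig1 (-0.82 to 0.32) and Acss2 (-0.69 to 0.02), but not for Acat2 or Fads1. Against propiconazole without its Rs293 array, Insig1 was -0.07 on that scale (95% interval -0.48 to 0.34). The intervals of Acat2, Acss2 and Fads1 stayed below 0 there. Cyp51 differed by -0.15 (95% interval -0.34 to 0.04) and -0.19 (95% interval -0.38 to 0.00). The list medians against the shared DMSO arrays were 0.08 for myclobutanil, 0.21 for propiconazole and 0.27 for triadimefon in sterol synthesis, and -0.20, -0.35 and -0.31 in PPARalpha targets. Among those targets Cyp4a3, on the fixed list, also met the naming rule for called falls from these myclobutanil arrays to the highest dose. Such a choice favours genes that are high on these arrays, and so favours differences above 0. Cyp4a3 was higher with myclobutanil than with propiconazole by 0.44 (95% interval 0.10 to 0.78, adjusted p over both pairs = 0.839) and Cyp4a1 by 0.25 (95% interval -0.17 to 0.66). On the deposited scale these were 0.18 and 0.12, and 0.50 and 0.29 when the Rs293 array of propiconazole was left out. The median difference of the 28 targets from propiconazole turned with the scaling. It was 0.08 (25 of 28 above 0) after quantile normalization and -0.06 (8 of 28 above 0) on the deposited scale, where the median over all genes was also -0.06, and 0.16 (24 of 28) on that scale without the Rs293 array. The sterol synthesis median was -0.13, -0.39 and -0.09 in the same 3 settings.

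**Figure D5:**
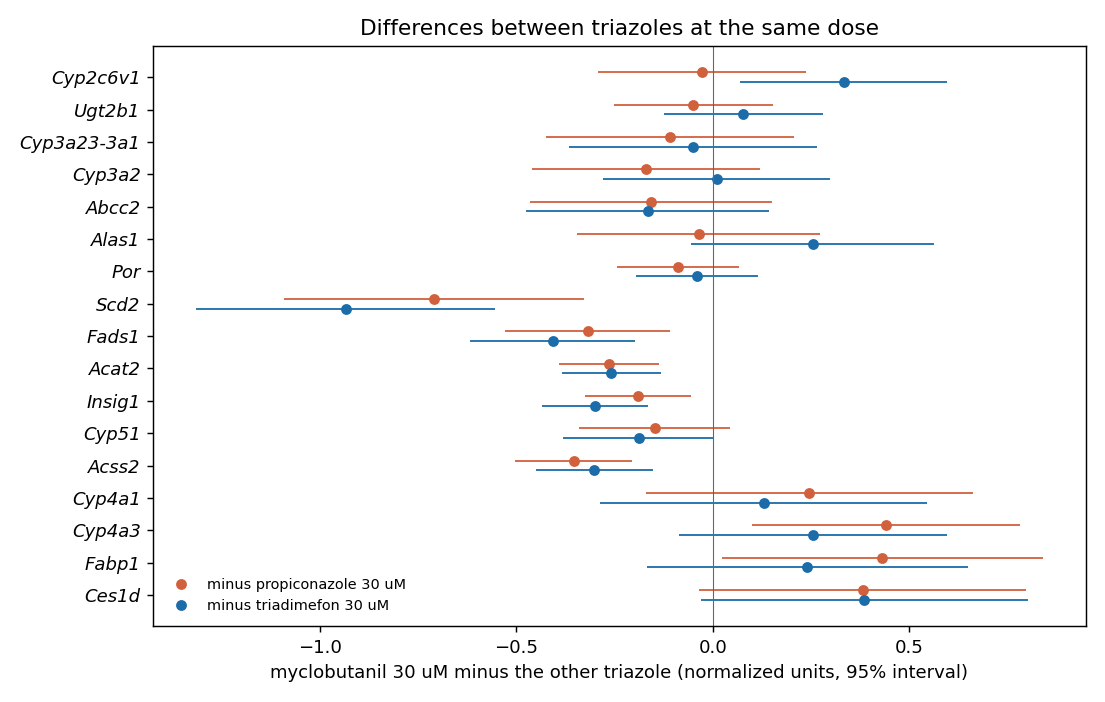
Difference between myclobutanil and the other triazole at 30 uM (x axis, normalized units, with 95% intervals for single genes) for 17 genes (y axis), against propiconazole (orange) and triadimefon (blue). Scd2 lies at -0.71 and -0.93, Cyp2c6v1 at -0.03 and 0.33, and none of the differences passed the test after adjustment.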

How the data were processed

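The authors deposited 1 value per probe set and array, a score on a log-like scale for 31099 probe sets and 35 arrays in 12 groups. Per the labels' protocols, cRNA was hybridized to Affymetrix arrays. How probes were summarised, corrected for background and normalized, and the base of the log, are not given in the sources used here. The array number limits the precision.

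The deposited values were quantile-normalized, which fixed Alb at a change of 0.00. A gene took the brightest, on average, of the probe sets that GEO's platform annotation assigns to it alone (20826 probe sets with 1 gene, 436 with several, 9780 with none). A gene entered the tests if it exceeded the median of its array on 2 or more of the 35 arrays, as 10490 of 14217 did. Tests used limma 3.58.1 in R 4.3.3 (lmFit, eBayes, two-sided, Benjamini-Hochberg within a comparison) on all arrays with 12 group means and the Rs code as a fixed block. The fit was tested on simulated data.

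As deviations from the group mean, arrays of 1 code in the 2 groups correlated across genes at r = 0.844, 0.703 and 0.727 (Rs256, Rs293, Rs304), and arrays of different codes at -0.618 to 0.0694, so the codes were taken to pair the arrays.

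The 24 gene lists, the blocked fit and the tests were chosen with earlier results of these data known. The text names up to 12 called genes in each direction, a fixed list of genes, called members and up to 4 of the largest changes of a described list, and 5 called genes in each direction of other comparisons. Genes named for a small p-value were chosen after their values were seen. Alternatives were no block, the values as deposited, median centring with scaling to a common median absolute deviation, only the groups compared, other filters, probe set means, a variance trend, left-out codes and arrays, and each probe set as a feature. Promoter sequences are from RefSeq (GRCr8).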

Additional observations from a re-analysis of the deposited data

Results flagged for a closer look

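The change from DMSO differed between 30 and 100 uM myclobutanil, by a limma test of the difference itself with an adjusted p under 0.05, in 17 genes named by the rule or as members of the sterol synthesis list. The difference (100 minus 30 uM) was 0.95 for Scd2, 0.49 for Acat2, 0.47 for Acss2, 0.45 for Hmox1 and 0.37 for Insig1. It was 0.34 for the delta-6 desaturase Fads2 and for Sdf2l1, 0.33 for Tm7sf2, 0.29 for Fdft1 and 0.23 each for Sc5d and Sqle. It was -0.85 for Ces1d, -0.75 for Cyp4a3, -0.70 for Angptl4, -0.56 for Eci1, -0.49 for Tm4sf4 and -0.48 for Fgf21. Some of these genes were named for the size of a called step, so their number is no separate result. No rule for finding single arrays far from the others was applied to groups of 3 arrays. The propiconazole array of Rs293 was singled out after the data were seen.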

How the results depend on the processing

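For myclobutanil at 30 uM against DMSO, 2 genes were called and 1 without the replicate block. The count was 0 with the deposited scale kept (183 at an unadjusted p under 0.05) and after median centring with scaling of the spread (170). It was 20 with only the 6 arrays, and 1 to 6 when a code or an array was left out. The step from 30 to 100 uM had 70 calls. It had 1 without the replicate block, 0 with the deposited scale kept and after centring with scaling, 126 with only the arrays compared and 0 to 26 without a code. The step from 10 to 30 uM had 2 calls and the triadimefon pair 1 with only the arrays compared. Leaving out a code gave 0 to 4 calls against propiconazole and 0 to 1 against triadimefon. Leaving out the propiconazole array of Rs293, an alternative added after the data were seen, gave 0. The cause of these shifts was not tested. Against DMSO, 4 named genes changed sign when a code or array was left out: the range was -0.023 to 0.14 for Abcc3, -0.0055 to 0.31 for Cyp7a1, -0.030 to 0.16 for Nqo1 and -5.13e-05 to 0.13 for Acss2. Against propiconazole, leaving out a code gave -0.119 to 0.0864 for Cyp2c6v1 and -0.0999 to 0.0489 for Ugt2b1. On the deposited scale without the propiconazole array of Rs293, an alternative also added after the data were seen, the differences were 0.0215 for Cyp2c6v1, 0.0788 for Ugt2b1 and 0.0666 for Cyp3a23-3a1. Over all alternatives and named genes, 62 calls were lost and 24 gained. The other filters, probe set means, the variance trend and each probe set as a feature gave 2 or 3 calls against DMSO.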

Other observations

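Some genes with small p-values against DMSO belonged to no list described in the report, and all were chosen after their values were seen. Srm, the spermidine synthase, measured 1.04, 0.98 and 1.02 with DMSO and 1.27, 1.14 and 1.18 with myclobutanil in Rs256, Rs293 and Rs304, a change of 0.18 (SE 0.0397, limma adjusted p = 0.156) without overlap. Mpeg1, a pore-forming protein of macrophages, measured 1.50, 0.93 and 1.12 with DMSO and 0.89, 0.73 and 0.89 with myclobutanil, a change of -0.35 (adjusted p = 0.156) without overlap, and it was called without the Rs293 arrays. Parp12, an interferon-stimulated gene, changed by -0.19 (adjusted p = 0.237), and Glud1, the mitochondrial glutamate dehydrogenase, by -0.28 (adjusted p = 0.348), both without overlap. Slc13a3, a dicarboxylate transporter, changed by 0.26 (adjusted p = 0.237) and Clic2 by 0.19 (adjusted p = 0.320).

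With each probe set as a feature, 3 of 17971 were called. Beside those of Cyp2c6v1 and Ugt2b1 this was 1368718_at, to which the annotation assigns no gene. It measured 1.20, 1.29 and 0.67 with DMSO and 1.98, 2.54 and 1.98 with myclobutanil at 30 uM, a change of 1.11 (SE 0.156, adjusted p = 0.00107) without overlap. At 10 uM it measured 1.74, 1.86 and 1.52 and at 100 uM 1.82, 2.64 and 1.87.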
